A study of Mus musculus with 4 samples.

Results

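The mitochondrial ribosomal protein genes were described in 4TO7 mouse mammary tumour cells. Members were the genes whose name on the array began with Mrpl or Mrps followed by a number, on spots that were not controls. There were 75 such genes among the 20500 genes tested, 46 named for the large subunit (Mrpl) and 29 named for the small subunit (Mrps). Where a gene had several probes, the probe with the highest mean intensity stood for it. All 75 passed the filter on dim probes, and each stood clear of background in Cy5 and in Cy3 on the 4 arrays, with no saturated spot, so none passed through a single group alone. Mrpl42, Mrpl57 and Mrpl58 stood on the array under older names and were outside the rule.

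The study compared 4TO7 cells with a stable pMSCV-miR-23b/27b/24 construct, which expresses the miRNA cluster of that name, with 4TO7 cells carrying the empty pMSCV-puro vector. 4TO7 is a tumour cell line of BALB/cfC3H mouse origin, and both groups were grown in DMEM with serum. Each group had 2 transfection replicates, so 4 arrays were read in all, on 1 slide in 1 scan. Every array carried Cy5-labelled RNA from the cells beside a common reference RNA, mixed from 11 mouse cell lines and labelled with Cy3. The series design names the replicates as transfection replicates of a stable line, the labels do not say whether one was a clone or a pool, and p-values measure only the spread between them. No array had the dyes swapped, but a dye effect of a probe is the same in both groups and drops out of their difference.

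The mitochondrial ribosome makes the few proteins that mitochondrial DNA encodes, all of them subunits of the respiratory chain and the ATP synthase. Its RNAs come from mitochondrial DNA, whereas all of its proteins are encoded in the nucleus, made in the cytosol and imported. Some of these proteins have a counterpart in bacterial ribosomes, and others were added in mitochondria. The array measured nuclear transcripts of the proteins, and neither the proteins nor the assembled ribosome was measured.

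Sequences are shown for miR-27b and miR-24, from the expressed cluster of miR-23b, miR-27b and miR-24, and for the promoters of the 4 genes that passed the test, because these genes carry the gene-level results. They were taken from RefSeq tables of build GRCm38.p6. In the mature miRNAs the capitals mark the seed, bases 2 to 8, and these 2 seeds differ.
mmu-miR-27b-3p: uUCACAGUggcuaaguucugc
mmu-miR-24-3p: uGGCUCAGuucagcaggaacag

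The promoter windows run from 250 bases before to 50 bases after the gene's start, 5′ to 3′ on the gene's strand, and capitals mark motif matches, described with the promoters as a whole further on. The Mrpl24 window was chr3:87919294-87919593, plus strand, and held the letters CTACANNTC, part of a ZNF143 motif. The Mrpl32 window was chr13:14612988-14613287, minus strand, and held GCGCNTGCG, part of an NRF1 motif, at 3 start positions, 2 of them overlapping on opposite strands. The Mrpl30 window was chr1:37890227-37890526, plus strand, and held the NRF1 letters at 1 position. The Mrps12 window was chr7:28741772-28742071, minus strand, and held CCGGAAG, a motif of ETS factors such as GABPA.
Mrpl24: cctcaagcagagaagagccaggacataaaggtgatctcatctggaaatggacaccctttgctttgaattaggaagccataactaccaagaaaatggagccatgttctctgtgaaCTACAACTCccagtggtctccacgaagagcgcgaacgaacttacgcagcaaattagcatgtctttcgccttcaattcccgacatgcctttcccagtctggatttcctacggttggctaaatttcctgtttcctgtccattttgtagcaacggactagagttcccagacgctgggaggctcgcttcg
Mrpl32: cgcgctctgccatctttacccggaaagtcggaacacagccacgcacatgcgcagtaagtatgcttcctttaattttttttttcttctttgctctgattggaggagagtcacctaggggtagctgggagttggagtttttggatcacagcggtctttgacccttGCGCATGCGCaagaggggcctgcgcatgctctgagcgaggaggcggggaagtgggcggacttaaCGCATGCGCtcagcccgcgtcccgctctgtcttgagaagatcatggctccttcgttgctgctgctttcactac
Mrpl30: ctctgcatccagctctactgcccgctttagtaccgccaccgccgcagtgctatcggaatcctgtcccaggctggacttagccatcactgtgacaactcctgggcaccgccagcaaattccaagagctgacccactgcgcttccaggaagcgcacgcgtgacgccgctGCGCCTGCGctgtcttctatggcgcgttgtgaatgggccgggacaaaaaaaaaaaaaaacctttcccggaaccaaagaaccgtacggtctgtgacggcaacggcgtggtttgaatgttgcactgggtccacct
Mrps12: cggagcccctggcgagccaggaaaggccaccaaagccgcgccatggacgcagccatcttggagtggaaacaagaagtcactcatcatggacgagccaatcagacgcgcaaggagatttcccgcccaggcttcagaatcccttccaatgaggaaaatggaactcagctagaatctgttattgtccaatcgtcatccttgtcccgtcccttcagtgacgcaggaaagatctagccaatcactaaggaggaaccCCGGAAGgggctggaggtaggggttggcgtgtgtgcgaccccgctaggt

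The family's fold changes were centred where those of all genes were. The median log2 fold change, miR-23b/27b/24 over vector, was -0.03 over the 75 members, the same as over all genes tested (-0.03). Of the members, 36 had a fold change above 0 and 39 below 0, against 45.8% and 54.2% of all genes, and the middle of the list lay between -0.27 and 0.18 (quartiles), against -0.25 and 0.22 over all genes. The median absolute log2 fold change was 0.23 in both. The median log2 ratio to the reference RNA over members was -0.18 and -0.23 on the miR-23b/27b/24 arrays and -0.24 and -0.13 on the vector arrays, so the groups overlapped. In RNA from whole cultures, fewer cells of a type and less RNA per cell cannot be told apart.

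By limma with Benjamini-Hochberg adjustment over all 20500 genes, 4 members passed adjusted p under 0.05, which is 5.33% of them, against 9.41% of all genes. Those that fell were 3 (Mrpl24, Mrpl32 and Mrpl30), 4% of members against 4.64% of all genes, and Mrps12 rose, 1.33% against 4.77%. All 3 that fell belong to the large subunit, 6.52% of its 46 genes, against 4.64% of all genes. The gene that rose belongs to the small subunit, 3.45% of its 29 genes, against 4.77% of all genes. No member reached a 2-fold change, against 8.19% of all genes, and 7 (9.33%) reached 1.5-fold, against 20.9%. At an unadjusted p under 0.05, 24 members (32%) were found, against 27.7% of all genes. Single arrays weighed on these calls, and the closing section gives the range of member calls beside that of all genes. The median log2 fold change over members was -0.06 without miR-23b/27b/24 replicate 1 and -0.03 without replicate 2. It was -0.07 without vector replicate 1 and 0.03 without vector replicate 2.

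**Figure D1:**
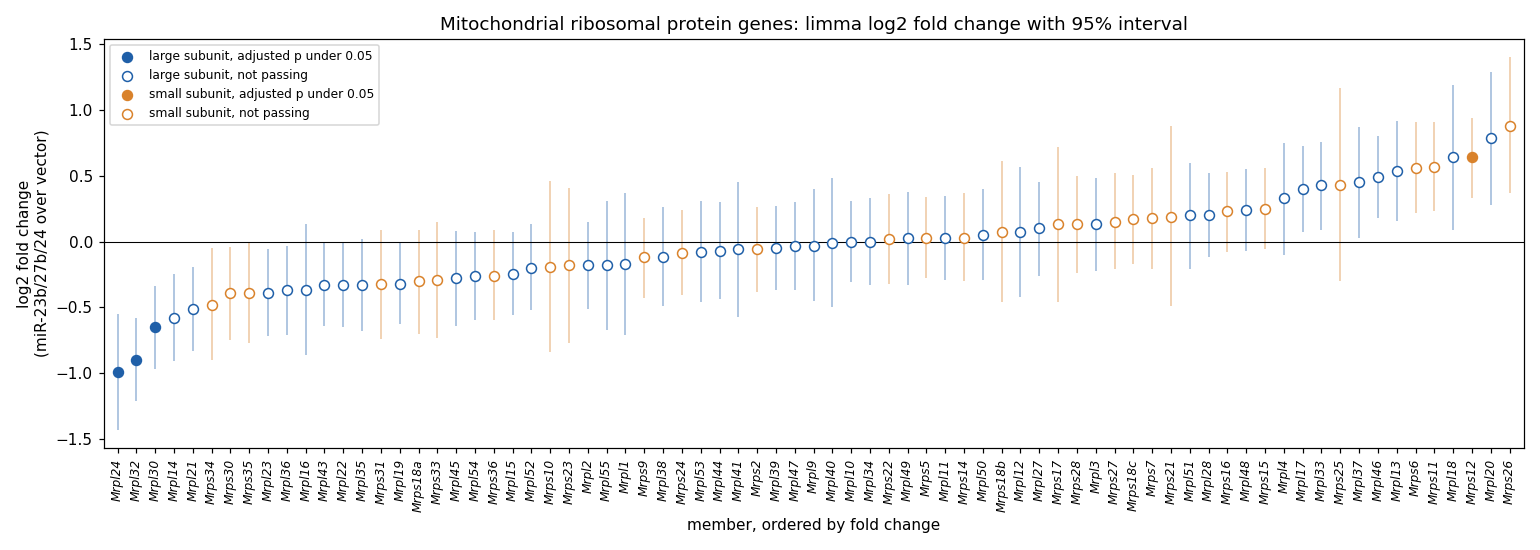
Log2 fold change, miR-23b/27b/24 over vector, of each of the 75 members, ordered by value, with its 95% interval from limma. Members lie on both sides of 0, from -0.99 (Mrpl24) to 0.88 (Mrps26), and 4 passed the test.

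Mrpl24 is the counterpart of bacterial L24, which starts assembly of the large subunit in bacteria. Its log2 ratio to the reference RNA was -0.44 and -0.13 on the miR-23b/27b/24 arrays, against 0.59 and 0.82 on the vector arrays. Both miR-23b/27b/24 arrays lay below both vector arrays, on the other side of 0. The difference was -0.99 ± 0.17 on the log2 scale (SE from 2 arrays in each group; limma adjusted p = 0.0357), that is 1.99-fold lower, with a 95% interval from -1.43 to -0.55. Its single probe maps to chromosome 3, 88037016 to 88037075, in mm7, the build of the array files.

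Mrpl32, the counterpart of bacterial L32, is imported as a precursor that the m-AAA protease of the inner membrane cuts to its mature form. It had log2 ratios of -1.0 and -0.92 in miR-23b/27b/24 cells and -0.10 and -0.03 in vector cells. The groups were far apart compared with the distance between replicates. The log2 fold change was -0.90 ± 0.12 (SE; limma adjusted p = 0.0213), 1.86-fold lower, with a 95% interval from -1.21 to -0.58. Its probe lies on chromosome 13, 13976722 to 13976781 (mm7).

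Mrpl30, the counterpart of bacterial L30, read -0.37 on each miR-23b/27b/24 array, against 0.22 and 0.35 on the vector arrays. It was below the reference RNA in miR-23b/27b/24 cells and above it in vector cells. The log2 fold change was -0.65 ± 0.12 (SE; limma adjusted p = 0.0426), 1.57-fold lower, from a probe on chromosome 1, 38136715 to 38136774 (mm7).

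Mrps12, the counterpart of bacterial S12 of the decoding centre, had log2 ratios of -0.28 and -0.33 in miR-23b/27b/24 cells, against -0.97 and -0.92 in vector cells. Both groups lay below the reference RNA, the vector arrays further. The log2 fold change was 0.64 ± 0.12 (SE; limma adjusted p = 0.0412), 1.56-fold higher, from a probe on chromosome 7, 25674092 to 25674151 (mm7). Each of the 4 genes was read by 1 probe, so no other probe checks it. Mrpl30 and Mrps12 passed in 7 and 9 of the 18 alternative settings, Mrpl24 and Mrpl32 in 15 and 16.

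**Figure D2:**
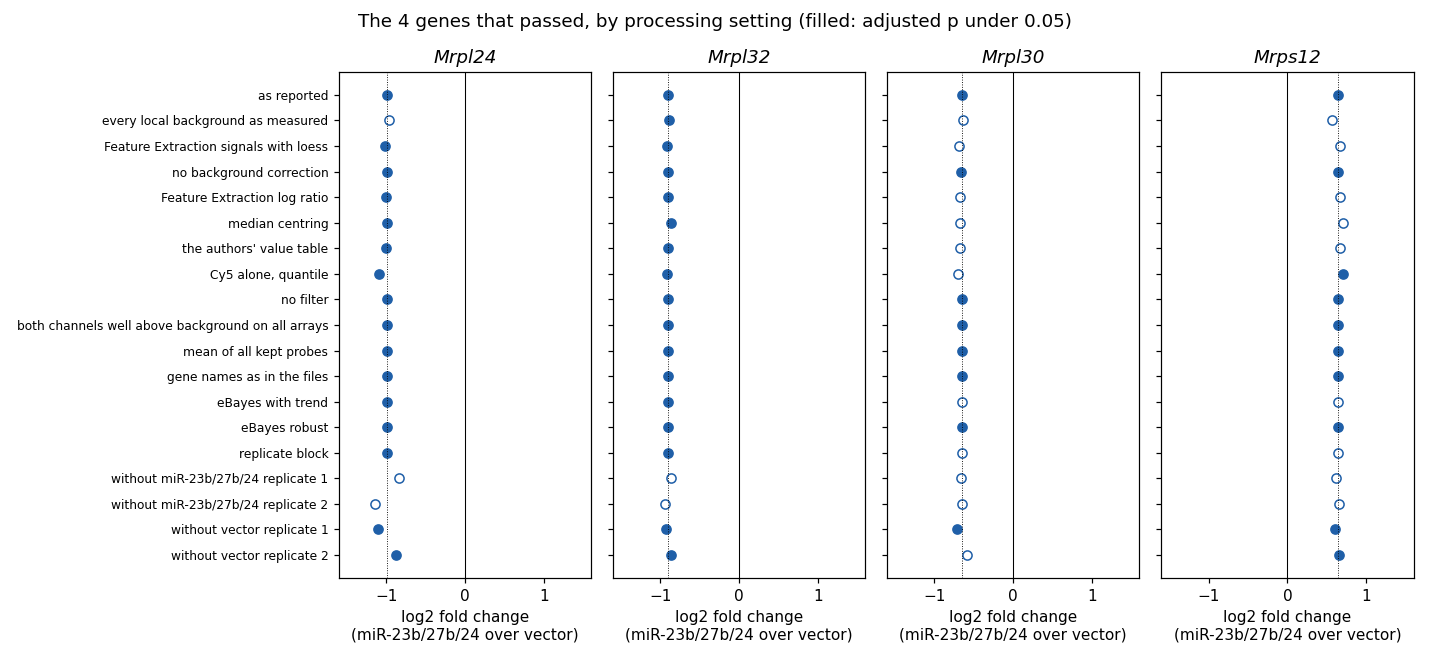
Log2 fold change, miR-23b/27b/24 over vector, of the 4 genes that passed, as reported (top) and under each of the 18 other processing settings; filled points have a limma adjusted p under 0.05 and the dotted line is the value as reported. The sign holds in every setting shown, with Mrpl24 between -1.15 and -0.84 and Mrpl30 between -0.72 and -0.59.

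**Figure D3:**
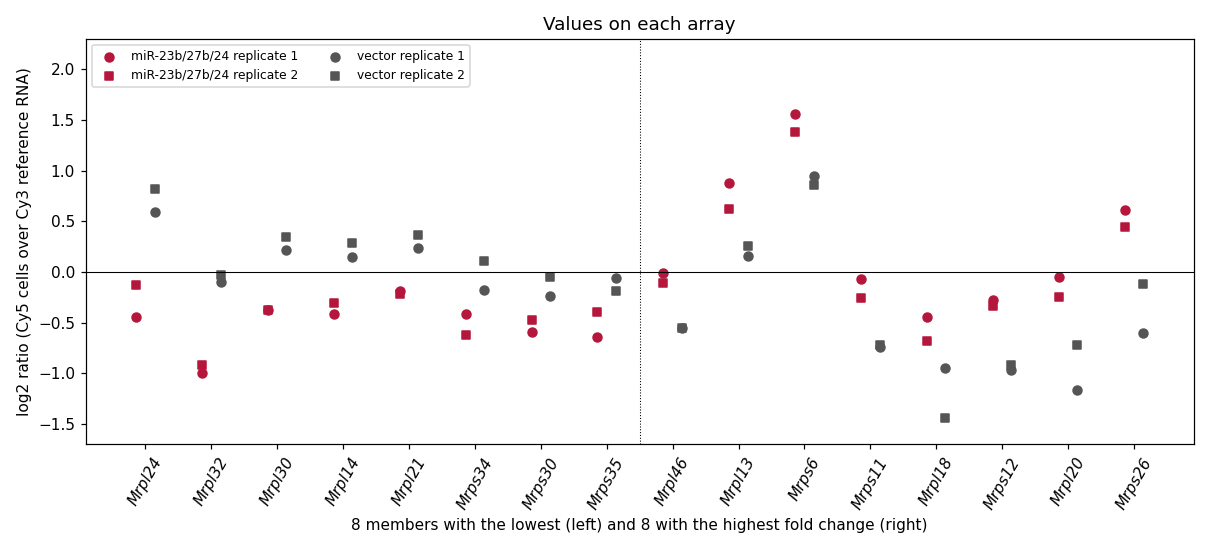
Log2 ratio of Cy5 (cells) to Cy3 (reference RNA) on each of the 4 arrays, for the 8 members with the lowest and the 8 with the highest fold change. In all 16 the miR-23b/27b/24 points (red) and the vector points (grey) do not overlap, as the choice of extreme fold changes favours.

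Among the other members with low fold changes, none passed the test. Mrpl14, which sits at the interface of the subunits, had log2 ratios of -0.41 and -0.31 in miR-23b/27b/24 cells and 0.15 and 0.29 in vector cells, a log2 fold change of -0.58 (limma adjusted p = 0.0595). Mrpl21, a counterpart of bacterial L21, read -0.19 and -0.22 in miR-23b/27b/24 cells, against 0.24 and 0.37 in vector cells, a difference of -0.51 (limma adjusted p = 0.0719). Both had their groups apart. The mitochondria-specific Mrps34 read -0.41 and -0.62 in miR-23b/27b/24 cells, against -0.18 and 0.11 in vector cells, a log2 fold change of -0.48 (limma adjusted p = 0.147). Mrps30 read -0.59 and -0.47 in miR-23b/27b/24 cells, against -0.24 and -0.05 in vector cells, and Mrps35 read -0.64 and -0.39 in miR-23b/27b/24 cells, against -0.06 and -0.19 in vector cells. Both are mitochondria-specific and had a fold change of -0.39 (limma adjusted p = 0.149 and 0.175), and their groups lay apart by about as much as replicates differed.

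The highest fold change was that of Mrps26, a small subunit protein found only in mitochondria. Its log2 ratios were 0.61 and 0.44 in miR-23b/27b/24 cells and -0.60 and -0.12 in vector cells, a fold change of 0.88 ± 0.20 (SE; limma adjusted p = 0.0622). The vector replicates differed by more than the miR-23b/27b/24 replicates did. Mrpl20, whose bacterial counterpart is needed to assemble the large subunit, read -0.05 and -0.25 in miR-23b/27b/24 cells, against -1.16 and -0.72 in vector cells, a fold change of 0.79 ± 0.19 (limma adjusted p = 0.0756). Mrpl18, the counterpart of the bacterial protein L18 that binds 5S rRNA, had a fold change of 0.64 (limma adjusted p = 0.137) with values of -0.44 and -0.68 in miR-23b/27b/24 cells and -0.95 and -1.44 in vector cells. The value of -1.44 was the lowest of any member on any array.

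Mrps6, a counterpart of bacterial S6, held the highest single value of any member. It read 1.56 and 1.38 in miR-23b/27b/24 cells and 0.95 and 0.86 in vector cells, a log2 fold change of 0.56 (limma adjusted p = 0.0692). Mrps11, of the platform of the small subunit, read -0.07 and -0.26 in miR-23b/27b/24 cells, against -0.74 and -0.72 in vector cells, a fold change of 0.57 (limma adjusted p = 0.0662). Both vector arrays of Mrps11 lay below both miR-23b/27b/24 arrays. Mrpl13, a counterpart of bacterial L13, read 0.88 and 0.62 in miR-23b/27b/24 cells and 0.16 and 0.26 in vector cells, a fold change of 0.54 (limma adjusted p = 0.0883). The mitochondria-specific Mrpl46 read -0.01 and -0.11 in miR-23b/27b/24 cells and -0.55 on each vector array, a fold change of 0.49 (limma adjusted p = 0.0744). None of these 7 genes passed, although their groups did not overlap.

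Across the list, 43 of 75 members (57.3%) had groups that did not overlap, against 59.8% of all genes. In 18 (24%) the miR-23b/27b/24 arrays lay above and in 25 (33.3%) below the vector arrays, against 27.4% and 32.3% of all genes. These shares are near the background. The 95% interval of the fold change stayed within 2-fold in either direction for 69 of the 75 and reached 2-fold for Mrpl24, Mrpl32, Mrps25, Mrpl18, Mrpl20 and Mrps26. Replicates of the members differed by a median of 0.10 in miR-23b/27b/24 cells and 0.14 in vector cells, against 0.13 and 0.19 over all genes.

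Large and small subunit genes were set side by side. The 46 large subunit genes had a median log2 fold change of -0.06, with 19 above 0 and 27 below, and the 29 small subunit genes had 0.03, with 17 above 0 and 12 below. On the arrays the median log2 ratio of large subunit genes was -0.19 and -0.24 in miR-23b/27b/24 cells and -0.25 and -0.14 in vector cells. That of small subunit genes was -0.05 and -0.19 in miR-23b/27b/24 cells and -0.21 and -0.12 in vector cells. The large minus small difference was -0.13 and -0.06 on the miR-23b/27b/24 arrays and -0.04 and -0.02 on the vector arrays. It was more negative on both miR-23b/27b/24 arrays, but by an amount close to the distance between them, and no test was made of this score over members.

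The symbols do not follow the structure everywhere. Mrps30 and Mrps18a encode proteins that lie in the large subunit in mammalian structures, despite their names. Counting both as large gave a median log2 fold change of -0.06 for large and 0.07 for small, and a large minus small difference of -0.17 and -0.10 in miR-23b/27b/24 cells and -0.07 and -0.01 in vector cells. Mrps18a, one of 3 paralogues of bacterial S18, had a fold change of -0.30, against 0.07 for Mrps18b and 0.17 for Mrps18c (limma adjusted p = 0.276, 0.864 and 0.482). Mrps36, at -0.26, encodes a protein now assigned to the 2-oxoglutarate dehydrogenase complex, but stayed among the small subunit genes in both counts.

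By origin, the 48 members with a bacterial counterpart had a median log2 fold change of 0.02, with 26 above 0 and 22 below. The 26 mitochondria-specific members had -0.06, with 10 above 0 and 16 below. All 4 genes that passed have a bacterial counterpart, which is 8.33% of that class, near the 9.41% of all genes. Of the mitochondria-specific genes none passed limma, and 7 (26.9%) had an unadjusted p under 0.05, against 27.7% of all genes. Small subunit genes with a counterpart (18) had a median of 0.13 and those without (10) of -0.24, whereas the 30 and 16 large subunit genes had -0.10 and -0.06. Subunits were taken by symbol here, so Mrps18a and Mrps30 counted as small. On the arrays the median log2 ratio of the 18 was -0.02 and -0.18 in cells expressing the cluster. In vector cells it was -0.23 and -0.03, so the groups overlapped. That of the 10 was -0.21 and -0.16 in cells expressing the cluster, against -0.12 and -0.08 in vector cells. Those groups lay apart by about as much as replicates differed, and the contrast was not tested.

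**Figure D4:**
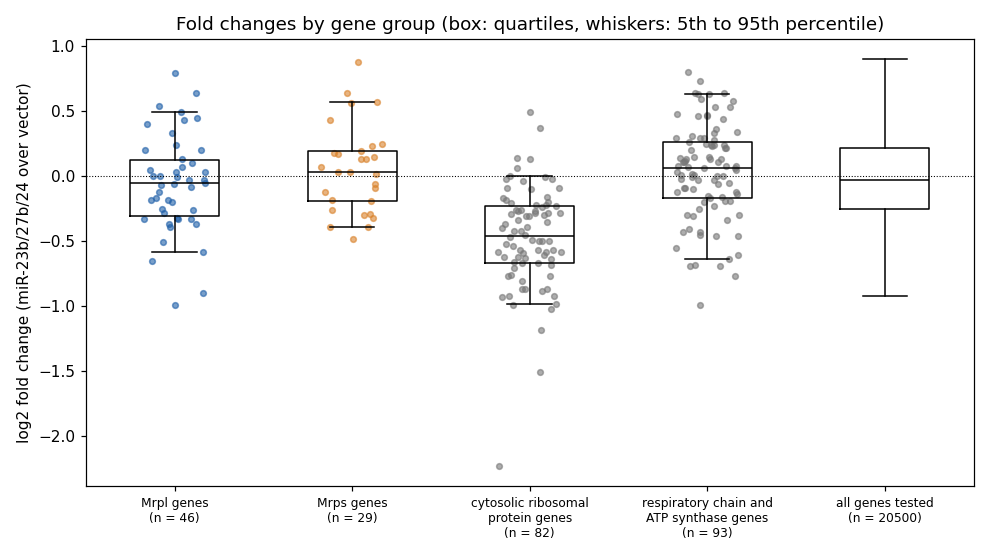
Log2 fold change, miR-23b/27b/24 over vector, of Mrpl, Mrps, cytosolic ribosomal and respiratory chain genes (points) and of all 20500 genes tested; boxes give median and quartiles, whiskers the 5th to 95th percentile. The medians of Mrpl and Mrps genes, -0.06 and 0.03, lie near that of all genes, -0.03, and that of cytosolic ribosomal genes lies at -0.46.

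Against the reference RNA, a mixture of other cell lines, 13 members had a log2 ratio above 0 on all 4 arrays, 37 below 0 on all 4, and 25 were mixed. None lay beyond 1 in either direction on all 4. Mrpl9, a counterpart of bacterial L9, stood high, at 0.99 and 0.93 in miR-23b/27b/24 cells and 0.80 and 1.16 in vector cells, with no separation of the groups. At the low end, the mitochondria-specific Mrpl51 read -0.67 and -0.77 in miR-23b/27b/24 cells and -0.76 and -1.07 in vector cells, and its groups overlapped. In the vector group 5 members differed by more than 0.5 between replicates, and in the miR-23b/27b/24 group none did.

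Other probes of a member were compared with the probe used. Of the 33 members with several probes, 32 kept several after the filter, and in 16 of them the probes' fold changes lay within 0.2 of each other. Mrps26's other probe gave 0.88, the same as the one used, and Mrpl18's gave 0.56 and 0.65. In a limma fit over kept probes in place of genes, Mrps26's other probe had an adjusted p of 0.0474 and the one used 0.0571. In 10 members the probes differed in sign (Mrpl1, Mrpl33, Mrpl38, Mrpl40, Mrpl44, Mrpl47, Mrpl52, Mrps5, Mrps9 and Mrps18b), none of which passed the test. For Mrpl33, a counterpart of bacterial L33, the probe used had a fold change of 0.43 and the other, much dimmer, of -0.34. For the mitochondria-specific Mrpl38 the probe used had -0.12 and the others 0.23 and 0.73. Mrps9, a counterpart of bacterial S9, had -0.12 from the probe used and -0.06 and 0.65 from the others.

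The remaining 7 differed less. Mrps5, a counterpart of bacterial S5, had a fold change of 0.03 from the probe used and 0.07, -0.27 and -0.34 from the others, and its probe used read 0.56 and 0.54 in miR-23b/27b/24 cells and 0.49 and 0.56 in vector cells. Mrpl52 had -0.20 from the probe used, against 0.23 and -0.03, and Mrpl1 had -0.17, against -0.15 and 0.21. Of these values none passed the test, and the direction of these genes depends on the probe. Mrpl44, of the ribonuclease III family, had -0.07, against 0.10 and 0.18, Mrps18b had 0.07, against -0.14, and Mrpl47 and Mrpl40 lay within 0.2 between probes.

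**Figure D5:**
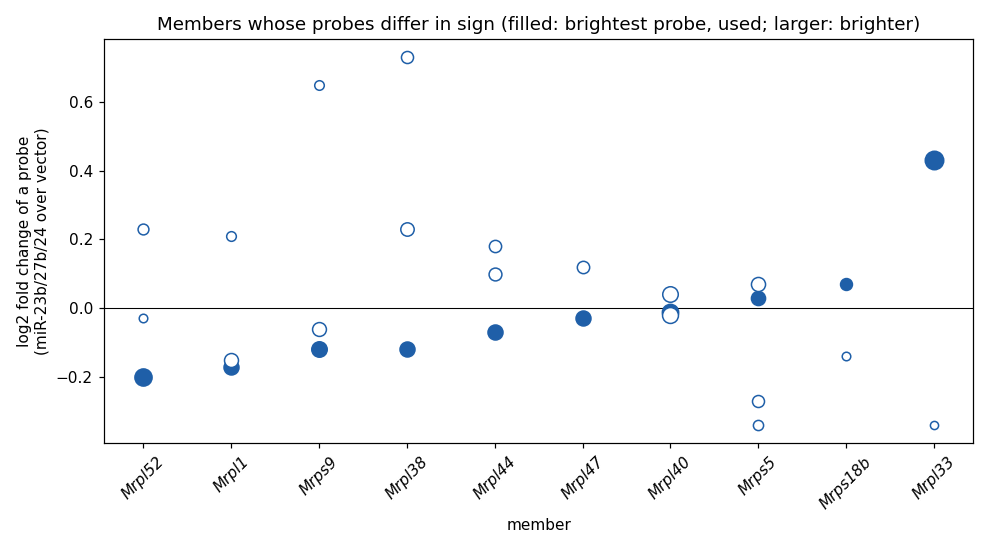
Log2 fold change, miR-23b/27b/24 over vector, of every kept probe of the 10 members whose probes differ in sign; filled points are the brightest probe, which was used, and larger points are brighter probes. The widest gaps are those of Mrpl38, from -0.12 to 0.73, Mrps9, from -0.12 to 0.65, and Mrpl33, from -0.34 to 0.43.

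Promoter motifs, which the rule did not use, were searched next. RefSeq windows of the same length were found for 66 members and for 17492 protein-coding genes in all, and 4 motifs were searched on both strands. They were GCGCNTGCG (NRF1), CCGGAAG (ETS, as GABPA), AAGATGGCG (YY1) and CTACANNTC (ZNF143), which were chosen after the sequences were seen, and no overlap between motifs was removed. A gene counted as matched if any of its windows held the letters, so a gene with several windows had more places to match. NRF1 was matched in 17 members (25.8%), against 9.68% of all these protein-coding genes, and ETS in 24 (36.4%), against 12.9%. YY1 was matched in 7 (10.6%), against 2.14%, and ZNF143 in 4 (6.06%), against 5.71%. At least 1 of the 4 motifs was present in 42 members (63.6%), against 25.9% of all. With longer forms of 3 of the motifs the shares were 18.2% against 7.17% for NRF1, 7.58% against 1.41% for YY1 and 6.06% against 3.1% for ZNF143.

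A match is a description and not a bound site, and the base composition of the windows was not matched. Members with a match to ETS had a median log2 fold change of 0.12, against -0.06 without it. The medians with and without a match were -0.05 and 0.02 for NRF1, -0.09 and 0.00 for YY1, and 0.01 and -0.02 for ZNF143. With the longer YY1 form they were 0.15 and -0.01, so the sign of that median depends on the letters searched. In the windows shown, the 3 genes that fell each had a match to ZNF143 or NRF1 and none to ETS. Mrps12, which rose, had a match to ETS. The motifs were chosen after the sequences were seen, so this split cannot test whether a motif goes with the direction of change.

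Several members share their start region with a neighbouring gene in the opposite direction. Starts up to 1000 bases apart were called head-to-head, from the RefSeq table, and 24 members had such a measured neighbour, giving 23 pairs because Mrpl46 and Mrps11 are neighbours of each other. Both genes of the pair had the same sign of fold change in 17 of 23 pairs (73.9%), against 401 of 637 (63%) head-to-head pairs over all genes. Both genes were called in 1 of the 23 member pairs, against 9 of the 637 pairs over all genes, where both moved the same way in all 9. In that member pair Mrpl30 fell with Mitd1, whose log2 fold change was -0.68 (limma adjusted p = 0.0491). Mrpl46 and Mrps11, in 1 pair, had fold changes of 0.49 and 0.57, and Mrpl43 and Twnk, the mitochondrial DNA helicase, -0.33 and -0.30, with none of the 4 passing. Of the neighbours, Tmem63b fell beside Mrpl14 (-0.76 and -0.58; limma adjusted p = 0.0384 for Tmem63b), and Pnpla7 fell beside Mrpl41 (-0.71 and -0.06; limma adjusted p = 0.0358 for Pnpla7). Cyb5rl rose beside Mrpl37 (0.59 and 0.45; limma adjusted p = 0.0472 for Cyb5rl). Among the 6 pairs of opposite sign, Mrps27 and Ptcd2 had 0.15 and -0.47, and Mrpl49 and Fau had 0.03 and -0.53, with none of the 4 passing. Mrps12 rose while its neighbour Sars2, the mitochondrial seryl-tRNA synthetase, stood at 0.14 (limma adjusted p = 0.536), and Mrpl32 fell while Psma2, a proteasome subunit, stood at -0.24 (limma adjusted p = 0.488).

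Other lists of mitochondrial genes had between 0 and 2 calls each, and their shares are to be read against 9.41% of all genes called and 27.7% at an unadjusted p under 0.05. The 7 mitochondrial ribosomal proteins under other symbols had a median log2 fold change of 0.00, none passed, and none had an unadjusted p under 0.05 in limma. Mrpl57 and Mrpl58 were in this list and Mrpl42 was not. Chchd1 and Ptcd3, with the smallest p in it, had fold changes of -0.26 and 0.23 (limma adjusted p = 0.261 and 0.299). Of 16 translation factors 1 (6.25%) was called: Mrrf, the ribosome recycling factor, fell (-0.86 ± 0.17 SE; limma adjusted p = 0.0474), and of 22 mitochondrial tRNA synthetases 1 (4.55%) was called: Cars2, the cysteinyl-tRNA synthetase, rose (0.86; limma adjusted p = 0.029). Of 17 assembly factors, 5 (29.4%) had an unadjusted p under 0.05 in limma and none passed, among them Mrm1, an rRNA methyltransferase, at -0.77, and Malsu1, which binds Mrpl14, at -0.48. Of 14 genes of mitochondrial DNA upkeep 2 (14.3%) were called: Mgme1 rose (0.69) and Polg2 fell (-0.73), a nuclease and the accessory subunit of the DNA polymerase (limma adjusted p = 0.0411 and 0.0364). Of 26 import and chaperone genes 1 (3.85%) was called: Tomm40, the pore of the outer membrane, rose (0.91; limma adjusted p = 0.0487). These calls depend on the processing: Mrrf and Tomm40 passed in 6 of 18 alternative settings each, Polg2 in 10 of 18, Mgme1 in 9 of 17 and Cars2 in 14 of 17. None of the 5 passed with every local background as measured (limma adjusted p from 0.0643 for Polg2 to 0.344 for Cars2), or without either miR-23b/27b/24 replicate.

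Of 13 regulators of mitochondrial genes, 5 (38.5%) had an unadjusted p under 0.05 in limma, against 27.7% of all genes. Of the 13, 1 (7.69%) was called, against 9.41% of all genes: Myc, which fell. Its log2 ratios were -0.52 and -0.28 in miR-23b/27b/24 cells and 0.79 and 1.59 in vector cells, with a fold change of -1.59 ± 0.29 (SE; limma adjusted p = 0.0406). It passed in 14 of 18 alternative settings, but not with every local background as measured (limma adjusted p = 0.0828). Nrf1 and Gabpa, whose motifs were searched, had fold changes of 0.27 and -0.25 and did not pass (limma adjusted p = 0.321 and 0.361). Yy1, whose motif was searched as well, had a fold change of -0.59 and did not pass (limma adjusted p = 0.0861). It read 0.16 and -0.05 in miR-23b/27b/24 cells, against 0.77 and 0.52 in vector cells. Cytosolic ribosomal genes had a lower median than the mitochondrial ones, -0.46 over 82 genes. Of these 77 (93.9%) lay below 0 and 13 (15.9%) were called lower, against 54.2% and 4.64% of all genes, among them Rpl22l1, a paralogue of Rpl22, at -2.23 and Rps23, of the decoding centre, at -1.18. Rps28, Rps26, Rps29 and Rps12 were among the 13 as well, at -1.02, -0.98, -0.92 and -1.51. With the mean of all kept probes Rpl22l1 stood at -0.33 and was not called. Over the alternative settings Rps12 ranged from -1.79 to -0.11. On the arrays the median log2 ratio of the 82 cytosolic genes was -0.34 and -0.09 in miR-23b/27b/24 cells, against 0.14 and 0.26 in vector cells. Those groups lay apart by about as much as the miR-23b/27b/24 replicates differed. The median fold change of the cytosolic genes moved to -0.68 with median centring in place of loess. The 93 respiratory chain genes had a median of 0.06, with 53 above 0 and 40 below, and 3 (3.23%) were called lower, below the 4.64% of all genes: Ndufs7, a complex I subunit, at -0.69, and the succinate dehydrogenase assembly factors Sdhaf3 and Sdhaf2 at -0.99 and -0.64. Ndufs7 passed in 9 of 18 alternative settings, Sdhaf3 in 13 of 17 and Sdhaf2 in 4 of 17.

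The identity of the cells was read from marker lists. Of 9 epithelial markers 7 (77.8%) were called lower in miR-23b/27b/24 cells, against 4.64% of all genes. The median log2 ratio of the 9 was -0.02 and 0.07 in miR-23b/27b/24 replicates, against 2.33 and 2.91 in vector replicates. Krt18 (-1.4; limma adjusted p = 0.065) and Krt8 (0.3; limma adjusted p = 0.607) did not pass, and the groups of Krt8 overlapped. With every local background as measured, Epcam, Cldn7 and Krt19 passed. Cldn3, Cldn4 and Esrp1 did not (limma adjusted p = 0.085, 0.243 and 0.271). Cdh1, also called lower as reported (-2.95, limma adjusted p = 0.03), was not followed over the alternative settings. Of 8 fibroblast markers none passed, with array medians from -3.89 to -3.51, and 5 had a fold change below 0. Pdgfra and Dcn had log2 fold changes of 1.23 and 0.39 (limma adjusted p = 0.101 and 0.152). In both the miR-23b/27b/24 arrays lay above the vector arrays. Of 7 immune markers 1 fell (Cd68), and none of 4 measured endothelial markers passed, with Vwf at -0.17 and Tek at -0.11. The epithelial markers other than Krt8 moved with the groups, and the part of these markers in the mitochondrial ribosomal results was not tested.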

How the data were processed

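RNA of 4TO7 cells (Cy5) and a common reference RNA (Cy3) were hybridised to 4 Agilent arrays, 2 per group, per the labels' protocols. Per the file headers, Agilent Feature Extraction reported intensity values for every spot (a mean signal, a local background), along with a processed intensity and a log10 ratio of Cy5 over Cy3. Its version was 9.5.3.1, per the submitters' processing notes. The authors' deposited value table holds log2 ratios centred per probe: between 87.3% and 87.8% of its values lay within 0.001 of the Feature Extraction ratio so centred, in the direction Cy5 over Cy3. Its column medians were 0.0221 and -0.0149 for miR-23b/27b/24 and 0.0133 and -0.0172 for vector arrays, and it served as an alternative.

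Analysis used R 4.3.3 with limma 3.58.1. The mean signals went through normexp background correction (offset 50), after local backgrounds marked as outliers (1782 to 1976 spots per array in Cy5) were replaced by the array's median, a step taken over from earlier work on these data. Loess within arrays followed, with weight 0 for control spots. Of 41174 probes, 69.9% to 74.8% were well above background in Cy5, and 30080 were kept because they were well above background on both arrays of at least 1 group. Probes were named by accession (22951), symbol (6659) or synonym (3109) from the RefSeq gene table, and otherwise by the file (8455). The brightest probe stood for each gene. lmFit and eBayes compared miR-23b/27b/24 with vector cells over all genes, with Benjamini-Hochberg adjustment and a threshold of 0.05, and the code was tested on simulated data. Across genes the replicates correlated at 0.952 (miR-23b/27b/24) and 0.887 (vector), and arrays of different groups at 0.629 to 0.725. With 2 arrays per group their number limits the precision. Slide and scan were shared by all arrays and could not enter as a block.

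Named were the members that passed, the 8 lowest and 8 highest, Mrps18a, Mrps18b, Mrps18c, Mrps30, members whose probes differ in sign, and from each other list the called genes, at most 6, or else the 2 with the smallest p. Mrpl9, Mrpl43, Mrpl51, Mrps25, Mrps36, head-to-head neighbours, Nrf1, Gabpa, Yy1, Cdh1, Krt8 and Krt18 were named outside this rule, after their values were seen. Members and lists were chosen with earlier results of these data known, and motifs and neighbours were added after the data were seen. Longer forms of 3 motifs, searched first, are kept as an alternative added after the data were seen. Alternatives changed the background, normalization, filter, probe rule, names, moderation, replicate block and replicates.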

Additional observations from a re-analysis of the deposited data

How the results depend on the processing

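The 4 genes that passed kept their sign in all 18 alternatives: Mrpl24 lay between -1.15 and -0.84 (log2), Mrpl32 between -0.94 and -0.86, Mrpl30 between -0.72 and -0.59 and Mrps12 between 0.57 and 0.71. The number of members called was 1 (Mrpl32) with every local background as measured, where 635 genes were called in all. It was 2 (Mrpl24 and Mrpl32) with Feature Extraction signals and loess, with the Feature Extraction log ratio, with the authors' deposited value table and with eBayes with trend. With the replicate block it was also 2, of 1740 genes in all; deviations of same-numbered arrays correlated at 0.0465 over all genes and -0.0931 over members, so with 2 pairs the numbers were not shown to pair the samples. Median centring called 1263 genes and 4 members, of which Mrpl20 and Mrps26 replaced Mrpl30 and Mrps12. Leaving out each replicate in turn gave 214 to 4584 genes called and 0 to 10 members called, in fits that take the spread of the lone array from the other group. The large minus small difference was -0.14 with unreplaced local backgrounds and also with Mrps30 and Mrps18a counted as large, and -0.03 with the mean of all kept probes, against -0.09 as reported. With the mean of probes the mitochondria-specific median was 0, and the median of members with a bacterial counterpart ranged from -0.06 to 0.06 when replicates were left out. The median over all members, -0.03 as reported, was 0.03 with median centring and without vector replicate 2, and that of small subunit genes, 0.03 as reported, was -0.01 without vector replicate 1. Over all alternatives 28 of the 75 members took another sign at least once, none of them called as reported, and 47 kept 1 sign. Among these 28, Mrps21 ranged from -0.16 to 0.55, Mrps10 from -0.53 to 0.14 and Mrps23 from -0.49 to 0.12, and 8 belong to the members named by rule: with the mean of probes Mrps18b -0.04, Mrps9 0.15, Mrpl38 0.28, Mrpl44 0.07, Mrpl47 0.04, Mrpl40 0 and Mrps5 -0.13; with median centring Mrpl47 0.03 and Mrpl40 0.01; with Cy5 alone Mrpl40 0. Leaving out each replicate in turn gave ranges across 0, among the members named by rule, for Mrps18b (-0.12 to 0.26), Mrpl38 (-0.24 to 0.01), Mrpl47 (-0.12 to 0.06), Mrpl40 (-0.23 to 0.21), Mrpl1 (-0.43 to 0.09), Mrps5 (-0.01 to 0.06) and Mrpl44 (-0.19 to 0.06). The cause was not tested for any of these. All members were well above background, but with every local background as measured Mrps11 stood at 0.39, against 0.57 as reported, and Mrpl46 at 0.39, against 0.49. The number of arrays, 2 per group, limits the precision.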
